A study of Mus musculus with 8 samples.

Results

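The genes described here encode the proteins of the cytosolic ribosome. They were chosen by name (Rpl and Rps genes, the acidic stalk genes Rplp0, Rplp1 and Rplp2, and Rpsa, without names that mark pseudogenes) and by a mean of at least 10 normalized counts over all mice. Of 53801 genes in the deposited table, 90 matched the names and 85 reached that level, the lowest being Rpl6l at 12.2, while the highest of the 5 below it, Rpl32l, was at 6.33. Rpl13 was added by its Ensembl identifier, ENSMUSG00000000740, because the symbol deposited beside it belongs to another gene. The choice used names and the mean level over both groups, and not the difference between the groups. Of the 85 genes, 77 encode standard ribosomal proteins (43 of the 60S subunit, 3 of its acidic stalk and 31 of the 40S subunit) and 8 are paralogs or copies. By annotation 81 are protein coding and 4, Rps3a2, Rps3a3, Rpl6l and Rps4l, are pseudogenes.

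RNA was measured in cortical microglia of 8 mice aged 30 days, taken 4 h after injection into a cerebral ventricle on 1 side. In the IL-33 group (mice 1 and 2 female, mice 3 and 4 male) the cytokine interleukin-33 was injected, and in the vehicle group (mice 5 and 6 female, mice 7 and 8 male) vehicle, which the table's header calls PBS. Dissociated tissue was run on 22% Percoll, microglia were sorted by flow cytometry, and each library stands for 1 mouse. The sources used here do not state the strain, the IL-33 dose or the markers of the gate.

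A ribosome joins a small 40S subunit, which reads the messenger RNA, to a large 60S subunit, which forms the peptide bonds. Most of its proteins are needed in equal numbers. Their messenger RNAs begin with a C and a run of pyrimidines, the terminal oligopyrimidine (TOP) motif, through which the kinase complex mTORC1 and the RNA-binding protein LARP1 set their translation and their stability. Translation of these messengers can therefore change without a change of their level, and the data here are levels of RNA.

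The libraries held 6989640 to 9323677 recovered reads, the shallowest from vehicle mouse 6 and the deepest from vehicle mouse 5. All 10 microglial markers examined were present, with summed normalized counts of 105709 to 113354 in IL-33 mice against 170770 to 194927 in vehicle mice. Of the 10, 7 were called lower and 1 higher, by the test described in the next paragraph. Of all tested genes, 28.5% were called lower and 29.2% higher. All 6 neutrophil markers were at 0 in every mouse. Of 7 lymphocyte markers listed, 6 are reported here, and the sums cover these 6 only. They summed to 2.98 to 10.4 in IL-33 mice and 2.52 to 7.63 in vehicle mice. Cd3e, Cd3d and Nkg7 were at 0 in every mouse, and 0 of the 6 were read enough to be tested. The sums were 230.2 to 289.4 in IL-33 mice against 661.9 to 772.3 in vehicle mice for markers of border macrophages and monocytes. They were 237.1 to 322.6 in IL-33 mice against 343.3 to 471.1 in vehicle mice for endothelial cells. For red blood cells (20.04 to 48.95 in IL-33 mice, 33.03 to 140.9 in vehicle mice), astrocytes (310.4 to 535.4 in IL-33 mice, 376.3 to 498.8 in vehicle mice), oligodendrocytes (726.7 to 922.0 in IL-33 mice, 739.5 to 813.5 in vehicle mice) and neurons (151.1 to 219.3 in IL-33 mice, 152.1 to 260.8 in vehicle mice) the ranges of the groups overlapped. The part of these cells in the results below was not tested.

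Most ribosomal protein genes rose modestly with IL-33. Of the 85 genes, 61 were higher (71.8%) and 0 were lower, where 29.2% of all 15110 tested genes were called higher and 28.5% lower. A call is a Benjamini-Hochberg adjusted p under 0.05 over all tested genes from limma on log2 of the normalized count plus 1, with terms for treatment and sex. All adjusted p-values below are from this test unless another is named. At an unadjusted p under 0.05 limma had 63 higher and 0 lower. On recovered reads, edgeR called 59 higher and 0 lower (28.3% and 29% of all tested genes), and DESeq2 60 higher and 0 lower (27.7% and 27.8%). The median log2 fold change of the 85 genes was 0.45, against 0.02 for all tested genes. Fold changes ran from -0.40 for the low pseudogene Rpl6l to 1.20 for Rps2, and 7 called genes reached 1 on the log2 scale (11.2% of all tested genes did so upwards). By edgeR 4 called genes reached it (Rps2, Rpl36al, Rps19 and Rps20), and by DESeq2 5 (these and Rpl13a). Normalized counts describe the RNA pool of each library, so that fewer cells of a type and less RNA per cell cannot be told apart.

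**Figure D1:**
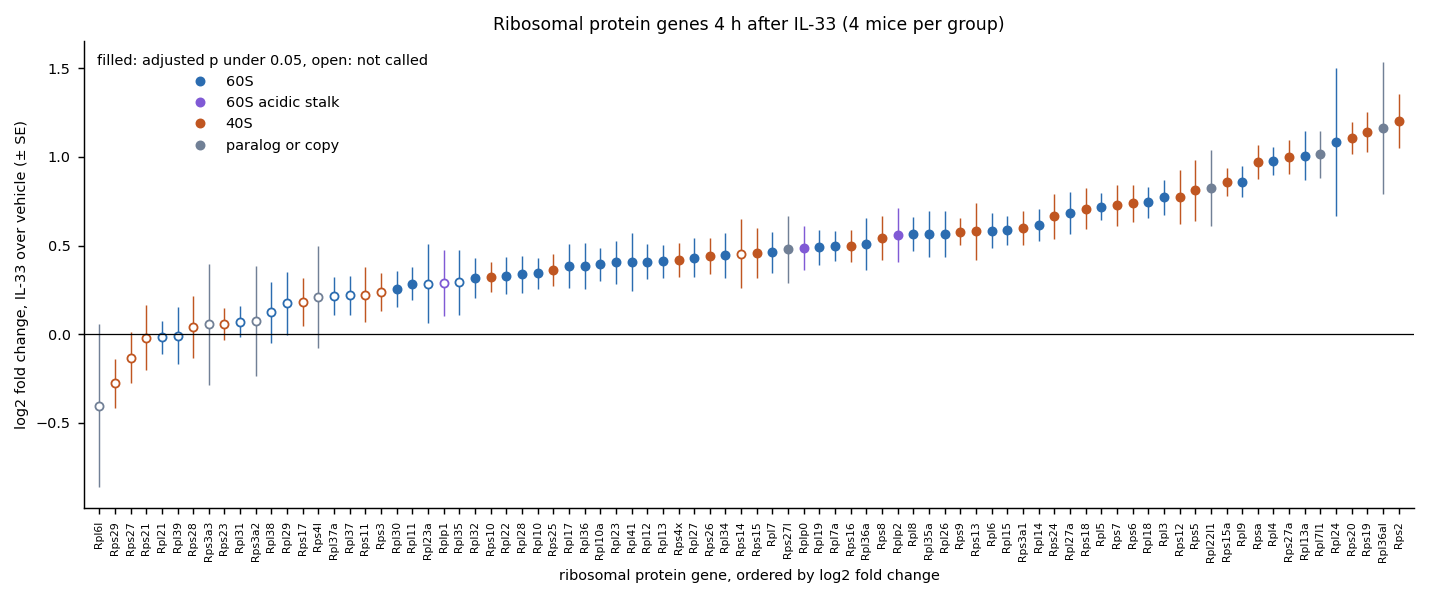
Log2 fold change of IL-33 over vehicle for 84 of the ribosomal protein genes (y axis, with SE bars), ordered along the x axis and coloured by subunit. Filled points passed the adjusted p of 0.05 and open points did not; 61 points are filled, all above 0, and the open points, mostly at the left, lie between -0.40 and 0.45.

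The 4 IL-33 mice all lay above the 4 vehicle mice in 50 of the 85 genes and all below in 0. Among all tested genes these shares were 26.7% and 25.6%. Each of the 50 was also called. In the other 11 called genes the groups overlapped. The authors' deposited table, made from the same libraries, lists 7029 genes with an adjusted p up to 0.00996. It contains 50 of the 85 genes, all of them higher with IL-33 in the authors' deposited table and all called higher here. Of all 15110 tested genes it lists 3398 as higher and 3362 as lower.

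As a share of all reads in the library, the 85 genes together took 0.980%, 1.09%, 0.901% and 0.969% in IL-33 mice 1 to 4, against 0.768%, 0.660%, 0.700% and 0.779% in vehicle mice 5 to 8. The groups did not overlap. The means were 0.984% ± 0.077 with IL-33 and 0.727% ± 0.057 with vehicle (SD, n = 4 each). The 60S genes with the stalk took 0.590% ± 0.045 with IL-33 and 0.444% ± 0.033 with vehicle, and the 40S genes 0.385% ± 0.032 with IL-33 and 0.277% ± 0.024 with vehicle. Reads of 40S genes per read of 60S genes were 0.659, 0.651, 0.636 and 0.659 in IL-33 mice against 0.632, 0.596, 0.642 and 0.617 in vehicle mice, and these ranges overlapped.

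The mice of a group also differed from each other as a block. Set against the vehicle mean of each gene, the median of the 85 genes was 0.50, 0.61, 0.31 and 0.40 on the log2 scale in IL-33 mice 1 to 4, and 0.10, -0.22, -0.00335 and 0.13 in vehicle mice 5 to 8. IL-33 mouse 2 was the highest IL-33 mouse in 64 of the 85 genes, and IL-33 mouse 3 the lowest in 56. Vehicle mouse 6 was the lowest vehicle mouse in 62. Without vehicle mouse 6 the median log2 fold change was 0.37, with 55 genes higher and 3 lower (29.3% and 28.3% of all tested genes in that fit).

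Among the 31 genes of the 40S subunit, 22 rose and 9 were not called, with a median log2 fold change of 0.54. Rps2 (ENSMUSG00000044533, chromosome 17, 24718116 to 24721929, GRCm38), whose protein lines the entry of the messenger RNA channel, had 1186, 1108, 741.8 and 859.3 normalized counts in IL-33 mice, against 499.7, 321.7, 452.1 and 409.4 in vehicle mice. Every IL-33 mouse lay above every vehicle mouse, and the log2 fold change was 1.20 ± 0.15 (SE, adjusted p = 1.56e-05). Rps19 (chromosome 7, 24884371 to 24889806), the gene most often mutated in human Diamond-Blackfan anaemia, had 740.5, 750.1, 615.6 and 621.1 in IL-33 mice, against 306.2, 257.4, 321.2 and 352.3 in vehicle mice. Its lowest IL-33 mouse was well above its highest vehicle mouse, with a log2 fold change of 1.14 ± 0.11 (adjusted p = 1.65e-07). Rps20 (chromosome 4, 3831334 to 3835665), a protein of the small subunit's head, had 1064, 1066, 957.3 and 1031 in IL-33 mice against 509.0, 425.3, 496.0 and 482.4 in vehicle mice. Both groups were narrow, and the log2 fold change was 1.11 ± 0.09 (adjusted p = 9.63e-09).

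Rpsa, which also serves as a laminin receptor, had 1828, 1608, 1331 and 1398 normalized counts in IL-33 mice, against 772.3, 712.1, 802.6 and 835.7 in vehicle mice (log2 fold change 0.97 ± 0.10, adjusted p = 1.62e-07). Rps27a, made as a fusion with ubiquitin, had 677.6, 641.9, 626.9 and 608.8 in IL-33 mice against 321.4, 284.6, 346.8 and 326.3 in vehicle mice, a log2 fold change of 0.999 ± 0.10 (adjusted p = 1.09e-07). In both genes the groups were far apart. Rps6 (chromosome 4, 86854660 to 86857412), the substrate of S6 kinase that is widely read as a sign of mTORC1 activity through its phosphorylation, had 1275, 1130, 968.6 and 1056 in IL-33 mice, against 565.4, 755.7, 624.1 and 710.6 in vehicle mice. Its RNA rose by 0.74 ± 0.10 on the log2 scale without overlap (adjusted p = 8.96e-06); phosphorylation was not measured.

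Rps3, a protein of the messenger RNA entry site with a further role in DNA repair, was not called. It had 1452, 1478, 1125 and 1297 normalized counts in IL-33 mice against 1072, 971.7, 1170 and 1321 in vehicle mice, with overlapping groups (log2 fold change 0.24 ± 0.11, adjusted p = 0.0646). Without IL-33 mouse 3 (0.34) or vehicle mouse 8 (0.33) it was called. Rps27 had 625.8, 775.9, 819.0 and 803.6 in IL-33 mice against 1032, 584.5, 848.4 and 901.8 in vehicle mice, where mouse 6 lay below the others (log2 fold change -0.13 ± 0.14, adjusted p = 0.454). Rps21, among the 3 genes with the smallest change, was at -0.02 ± 0.18. Rps29, named after its values were seen, had 716.1, 915.8, 728.6 and 877.1 in IL-33 mice against 1143, 725.2, 960.0 and 1138 in vehicle mice (log2 fold change -0.28 ± 0.14, adjusted p = 0.105). Of its vehicle mice, only mouse 6 lay within the IL-33 range. Without mouse 6, Rps29 was lower by call (log2 fold change -0.43, adjusted p = 0.00114), as was Rps27 (-0.29, adjusted p = 0.020).

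**Figure D2:**
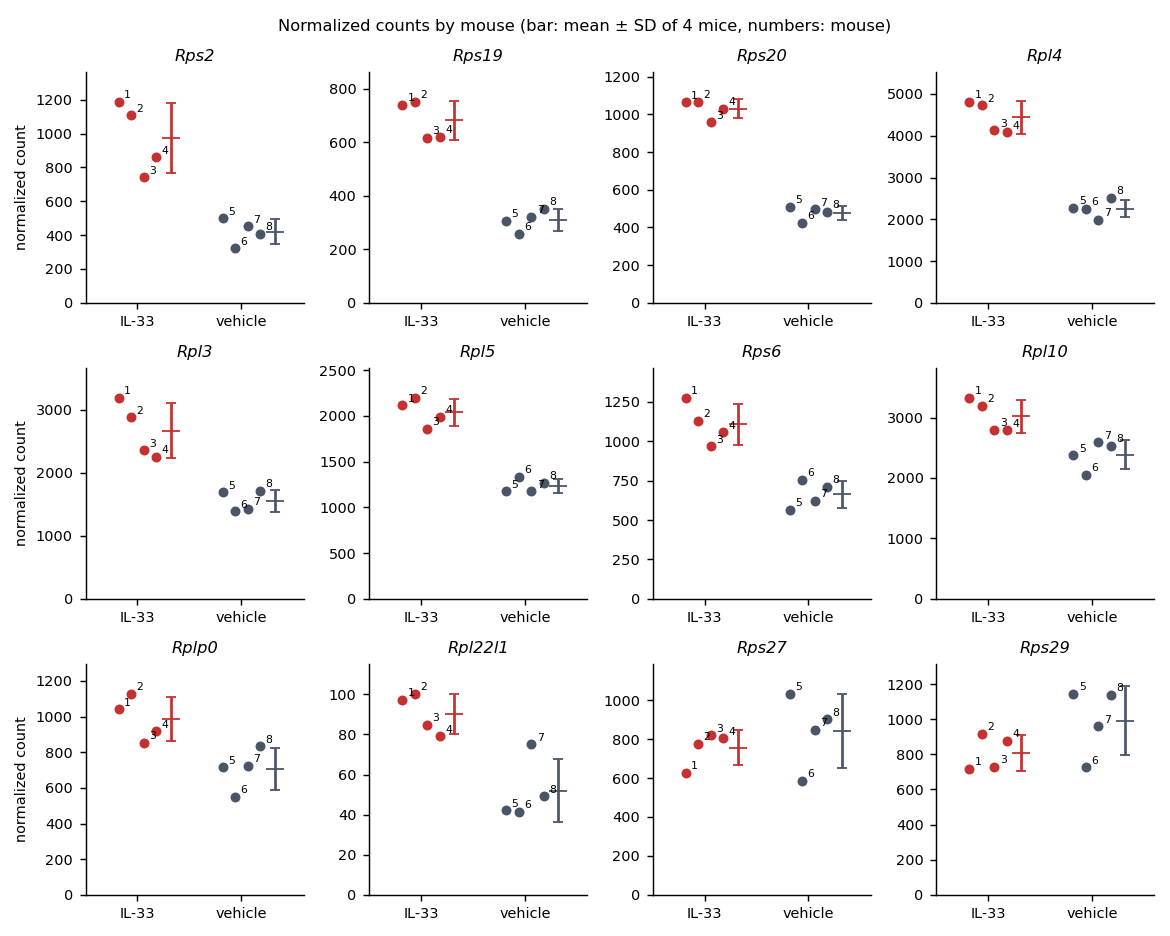
Normalized counts (y axis, from 0) of 12 ribosomal protein genes in each IL-33 mouse (left, mice 1 to 4) and each vehicle mouse (right, mice 5 to 8), with the mean ± SD of each group as a bar. Rps2, Rps19, Rps20 and Rpl4 separate without overlap, while Rps27 and Rps29 overlap and have their lowest vehicle value in mouse 6.

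Among the 43 genes of the 60S subunit outside the stalk, 33 rose and 10 were not called, with a median log2 fold change of 0.41. Rpl4 (ENSMUSG00000032399, chromosome 9, 64173375 to 64178666), which reaches into the tunnel through which the new peptide leaves, had the highest normalized counts of all 85 genes. They were 4807, 4730, 4127 and 4085 in IL-33 mice against 2273, 2251, 1992 and 2512 in vehicle mice, a log2 fold change of 0.98 ± 0.08 without overlap (adjusted p = 1.28e-08). Rpl3, next to the peptidyl transferase centre, averaged 2667 ± 440 with IL-33 and 1552 ± 170 with vehicle (SD, n = 4 each, log2 fold change 0.77 ± 0.10, adjusted p = 4.17e-06). Rpl10, which joins the subunit late in its assembly, averaged 3026 ± 273 with IL-33 and 2388 ± 244 with vehicle (log2 fold change 0.34 ± 0.09, adjusted p = 0.00306). Rpl13a, known in human monocytes as the inhibitor released from the ribosome to silence inflammatory messengers, had 255.6, 256.0, 201.4 and 250.4 in IL-33 mice against 118.6, 106.9, 127.2 and 123.1 in vehicle mice (log2 fold change 1.01 ± 0.14, adjusted p = 6.29e-06). Of these, Rpl4 and Rpl13a rose the most.

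Rpl5 and Rpl11 form, with 5S ribosomal RNA, the particle that binds MDM2 when ribosome assembly fails. Rpl5 had 2114, 2195, 1859 and 1989 normalized counts in IL-33 mice against 1174, 1332, 1175 and 1269 in vehicle mice, with no overlap (log2 fold change 0.72 ± 0.08, adjusted p = 3.65e-07). Rpl11 had 1170, 1332, 1049 and 1163 in IL-33 mice against 1090, 995.6, 782.5 and 1014 in vehicle mice, with overlap and a smaller log2 fold change of 0.29 ± 0.09 (adjusted p = 0.014). The call of Rpl11 was lost without vehicle mouse 7 (log2 fold change 0.21, adjusted p = 0.0732), IL-33 mouse 2 (adjusted p = 0.0564) or IL-33 mouse 4 (adjusted p = 0.0548). Rpl23, another protein that binds MDM2, was called with overlapping groups (log2 fold change 0.40 ± 0.12, adjusted p = 0.00876), and without IL-33 mouse 2 its call was lost (log2 fold change 0.30). Rpl13 averaged 1932 with IL-33 and 1464 with vehicle (log2 fold change 0.41 ± 0.09, adjusted p = 0.00115).

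Of the acidic stalk, which recruits the elongation factors, 2 of 3 genes rose. Rplp0, the base of the stalk, averaged 984.4 ± 123.0 with IL-33 and 705.5 ± 117.7 with vehicle (log2 fold change 0.49 ± 0.12, adjusted p = 0.0032). Rplp2 averaged 1132 ± 105 with IL-33 and 782.7 ± 180.3 with vehicle (log2 fold change 0.56 ± 0.15, adjusted p = 0.00781), or 0.37 on the log2 scale without vehicle mouse 6. Rplp1, which pairs with it, had 841.9, 1038, 863.2 and 921.6 in IL-33 mice against 964.1, 512.5, 694.6 and 906.8 in vehicle mice and was not called (log2 fold change 0.29 ± 0.19, adjusted p = 0.218). It was called without vehicle mouse 5 (0.45) and was at 0.083 without vehicle mouse 6.

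Rpl39 and Rpl21 were, with Rps21, the genes with the smallest change. Rpl39, the small protein that lines the exit tunnel, had 544.7, 631.0, 408.5 and 490.9 in IL-33 mice against 630.1, 377.3, 517.1 and 574.5 in vehicle mice (log2 fold change -0.00881 ± 0.16, 95% interval -0.36 to 0.34). Rpl21 averaged 1181 with IL-33 and 1194 with vehicle (log2 fold change -0.02 ± 0.09, 95% interval -0.21 to 0.18). Rpl24, at 22.3, 23.8, 30.1 and 24.5 normalized counts in IL-33 mice against 19.4, 3.27, 16.5 and 14.01 in vehicle mice, was the least read standard gene. Its log2 fold change of 1.08 ± 0.42 (adjusted p = 0.0344) rests on few reads, was not called by edgeR (adjusted p = 0.0642) or DESeq2 (adjusted p = 0.0731), and was 0.58 (adjusted p = 0.143) without vehicle mouse 6. The call was also lost without IL-33 mouse 1, 2 or 3 or vehicle mouse 8.

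The extent of the rise went with the length of the coding sequence. The cuts at 300 and 600 bases were set after the values were seen, so the counts that follow are a description. Of the 22 standard genes with 600 or more coding bases, 21 rose, with a median log2 fold change of 0.58; the exception was Rps3. Of 46 genes with at least 300 and fewer than 600 coding bases 35 rose (median 0.44). Of 9 genes with fewer than 300, only Rpl41 was called (log2 fold change 0.41, adjusted p = 0.0477), and the median was 0.04; edgeR called 0 of the 9 and DESeq2 called 1. The count of the 9 was 0 without any 1 of IL-33 mice 1 to 4 or vehicle mice 6 and 7, and 2 without vehicle mouse 5 or 8. Among all tested protein-coding genes, 33.3% of 9949 genes with 600 or more coding bases were called higher. The share was 29.5% of 1247 in the middle class and 21.1% of 251 in the shortest class. The shares called lower were 30.2%, 27.4% and 19.9% in the same order, so calls in both directions were fewer in shorter genes. The median log2 fold changes of these classes were 0.04, 0.05 and 0.04.

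Across the 77 standard genes, the log2 fold change and the coding length had a Spearman rho of 0.47 and a Pearson r of 0.48. All these points come from the same 8 libraries. With each mouse left out the rho was 0.37 (without vehicle mouse 5) to 0.52 (without vehicle mouse 6), and it was 0.41 in females and 0.42 in males. Over 11447 protein-coding genes the rho was -0.03. Within the 77 genes the rho of the fold change with the mean level was 0.08. With the share of 50-base windows of the transcript that also occur in another gene the rho was 0.09.

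Summed over the 9 shortest genes, normalized counts were 4641, 5535, 4564 and 5004 in IL-33 mice against 5638, 3573, 4738 and 5411 in vehicle mice, and the groups overlapped. Over the 22 longest genes the sums averaged 35171 ± 3388 with IL-33 and 23030 ± 1566 with vehicle (SD, n = 4 each), without overlap. Without vehicle mouse 6 the median log2 fold change of the 9 shortest genes was -0.14, and without vehicle mouse 8 it was 0.19. In the same fits the median of the 22 longest genes was 0.54 and 0.67. In females alone the median was 0.32 for the 9 shortest genes and 0.74 for the 22 longest. In males alone it was -0.28 for the shortest and 0.54 for the longest. The kit that made the libraries amplifies the cDNA, and the sources used here do not state the size range of the sequenced fragments. The part of fragment length in this pattern was not tested.

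**Figure D3:**
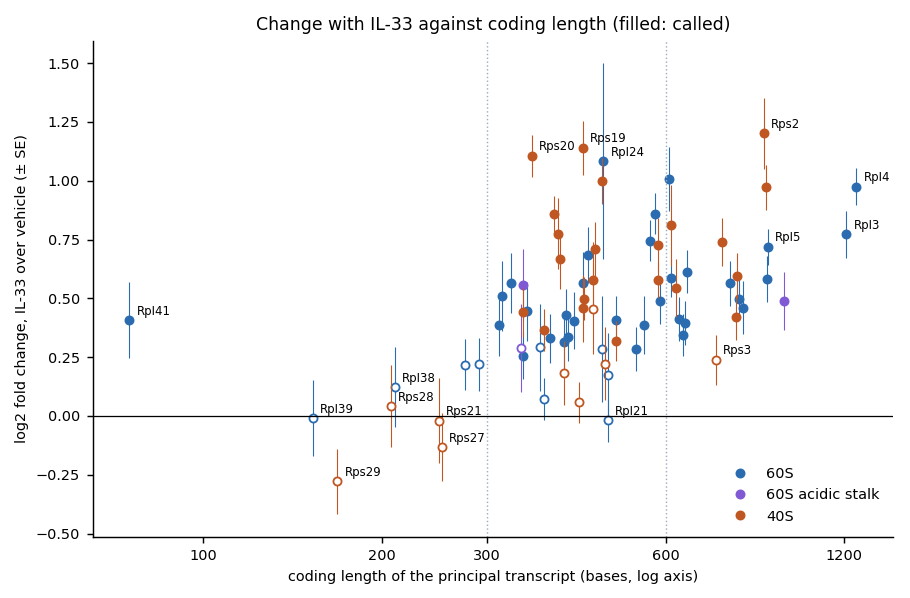
Log2 fold change of IL-33 over vehicle (y axis, with SE bars) against the coding length of 76 of the standard genes (x axis, log scale, in bases), with dotted lines at 300 and 600 bases. Of the 9 genes left of 300 only Rpl41 is filled, and of the 22 genes right of 600 only Rps3 is open.

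**Figure D4:**
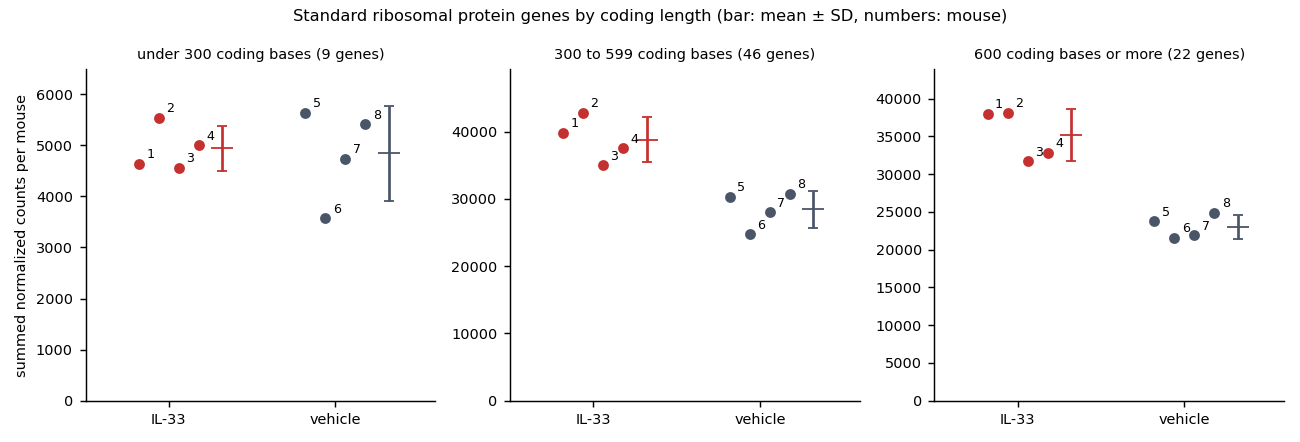
Normalized counts summed over standard genes in each IL-33 mouse (left) and each vehicle mouse (right), in 3 classes of coding length, with the mean ± SD as a bar and y axes from 0. The groups overlap in the shortest class, where vehicle mouse 6 is lowest, and separate in the 2 longer classes.

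Of the 8 paralogs and copies 4 rose: Rpl7l1, Rpl22l1, Rpl36al and Rps27l. Rpl7l1 (chromosome 17, 46773907 to 46782672), a paralog of Rpl7, had 476.7, 393.9, 384.1 and 406.3 normalized counts in IL-33 mice against 242.3, 159.2, 213.2 and 212.2 in vehicle mice (log2 fold change 1.01 ± 0.13, adjusted p = 4.37e-06). Its share of the counts of Rpl7l1 and Rpl7 together was 33.5% to 37.6% in IL-33 mice and 25.7% to 29.99% in vehicle mice, so the shares did not overlap; Rpl7 itself rose by 0.46 on the log2 scale. Rpl22l1 had 97.4, 100.2, 84.7 and 79.0 in IL-33 mice against 42.1, 41.4, 75.04 and 49.0 in vehicle mice (log2 fold change 0.82 ± 0.22, adjusted p = 0.00335), and Rpl22 rose by 0.33, a call lost without IL-33 mouse 4 or vehicle mouse 7 (0.26 in each case). The share of Rpl22l1 in its pair was 10.6% to 14.5% in IL-33 mice and 6.57% to 15.3% in vehicle mice, where mouse 7 was the highest of all 8.

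Rpl36al was read little, with 16.2, 21.8, 16.9 and 18.9 normalized counts in IL-33 mice against 9.25, 4.36, 9.15 and 9.01 in vehicle mice (log2 fold change 1.16 ± 0.37, adjusted p = 0.0128), and its parent Rpl36a rose by 0.51 (0.33 without vehicle mouse 6). Its share in the pair was 4.65% to 6.90% in IL-33 mice and 2.84% to 4.29% in vehicle mice. Rps27l, a target of p53, rose by 0.48 ± 0.19 on the log2 scale with overlapping groups (adjusted p = 0.0399), a call that was lost under 11 alternatives, among them leaving out IL-33 mouse 2 or 4 or vehicle mouse 6, 7 or 8 (0.34 to 0.50). Its share of the pair with Rps27 was 9.66% to 14.1% in IL-33 mice and 7.39% to 10.1% in vehicle mice. Rps4l (log2 fold change 0.21), Rps3a2 (0.07), Rps3a3 (0.06) and Rpl6l were not called, while Rps4x, the X-linked standard gene beside Rps4l, rose by 0.42.

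The 5 genes that matched the names but lay under a mean of 10 are mostly tissue-restricted copies. Rpl39l, known from male germ cells, had 32 reads of 31993955 in the IL-33 group, which is 1.0002 RPM (reads scaled to a common library total, exact Poisson 95% interval 0.684 to 1.41), and 9 of 32806198 in the vehicle group, which is 0.274 (0.125 to 0.521). Rpl3l, known from heart and skeletal muscle, had 2 reads with IL-33 and 4 with vehicle, and Rpl32l 26 in each group. Rpl10l had 0 reads in both groups, which allows up to 0.0938 RPM with IL-33 and 0.0914 with vehicle (3 reads of the group's total). Rps12l1 also had 0 reads, but 100% of its windows of 50 bases occur in another gene, so its count sets no limit. These intervals and limits cover counting error only.

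Sequence shared with other annotated genes, pseudogenes among them, limits what a level of these genes means. Of the 77 standard genes, 76 share at least 1 window of 50 bases, on either strand, with another annotated gene of any kind. At least 50% of the windows are shared in 51 genes, and the median of the 77 genes is 61.2%. Of 297 named ribosomal protein pseudogenes in the table, 65 were tested. Of these, 8 were higher (12.3%) and 3 lower (4.62%), smaller shares than the 29.2% and 28.5% of all tested genes. Their median log2 fold change was 0.31, against 0.02 for all tested genes. Apart from Rpl10a-ps1 they averaged at most 79.4 normalized counts over all mice, and calls at low counts are limited by depth. The most read were Rpl10a-ps1 (236.6 with IL-33 and 184.9 with vehicle, adjusted p = 0.0505), Rps16-ps2 (96.3 with IL-33 and 62.6 with vehicle, adjusted p = 0.0207) and Rps19-ps4 (87.6 with IL-33 and 55.3 with vehicle, adjusted p = 0.00661). Rpl10a-ps1 was called without IL-33 mouse 3 or 4 or vehicle mouse 8 and was at 0.23 on the log2 scale without IL-33 mouse 1. The call of Rps16-ps2 was lost without IL-33 mouse 2 or 4 or vehicle mouse 6 (0.41 to 0.58). With the counts of named pseudogenes added to their parent genes, 60 of the 85 genes were higher and 0 lower. Per kb of annotated transcript the standard genes of the vehicle group ran from 19.6 normalized counts for Rpl24 to 2988 for Rpl10. The share of windows found in another gene was 81.7% for Rpl24 and 92.1% for Rpl10. Across the 77 standard genes the Spearman rho of this level with that share was 0.11.

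The region around the start of transcription could be examined for 61 of the 85 genes, in RefSeq windows of 300 bases (GRCm38.p6, 250 before the start and 50 from it). The TOP motif was taken as a C at the annotated start followed by at least 4 pyrimidines. Of the 61 genes 13 had it (21.3%), against 3.01% of 27025 genes in the table. It was present in 9 of the 50 genes that rose and in 4 of the 11 that were not called. Annotated starts can lie some bases from the starts used in these cells. The windows below run from 15 bases before the start to 15 from it, with the pyrimidine run from the start in capitals, for the 3 largest and the 3 smallest fold changes among these 13 genes. The log2 fold changes of the 13 genes run from -0.13 to 0.86, so the genes with the largest rises are not among them. Of the 85 genes, 24 had no window to search, so absence from the 13 need not mean that a gene lacks the motif. The windows lie, all on the strand of the gene, at chr7:118116133-118116162 (Rps15a, minus), chr4:86857353-86857382 (Rps6, minus), chr17:33955651-33955680 (Rps18, minus), chr11:114668565-114668594 (Rpl38, plus), chr2:180257364-180257393 (Rps21, plus) and chr3:90213634-90213663 (Rps27, minus).
Rps15a: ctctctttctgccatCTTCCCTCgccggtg
Rps6: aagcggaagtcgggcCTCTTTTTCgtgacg
Rps18: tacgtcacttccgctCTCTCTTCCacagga
Rpl38: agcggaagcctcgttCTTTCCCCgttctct
Rps21: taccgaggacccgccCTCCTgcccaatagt
Rps27: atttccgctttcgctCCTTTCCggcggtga

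The log2 fold changes beside these 6 windows were 0.86 for Rps15a, 0.74 for Rps6 and 0.71 for Rps18, all called, and 0.12 for Rpl38, -0.02 for Rps21 and -0.13 for Rps27, none called. Rps15a, Rps18 and Rpl38 were named for their windows, after their values were seen. Rps15a had 1568, 1713, 1536 and 1520 normalized counts in IL-33 mice against 929.6, 836.4, 870.3 and 855.7 in vehicle mice. Rps18 averaged 830.4 with IL-33 and 504.1 with vehicle, and Rpl38 242.1 with IL-33 and 226.0 with vehicle.

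The same windows were searched on both strands for short words known from housekeeping promoters. CCGGAAG, a core bound by ETS factors such as GABP, was in 25 of the 61 genes (40.98%) against 9.93% of all genes in the table. GGGCGG, bound by SP1, was in 39 (63.9%) against 38.2%, and AAGATGGC, bound by YY1, in 6 (9.84%) against 3.19%. CACGTG, the E-box of MYC and MAX, was in 6 (9.84%) against 8.09%, and the TATA word TATAAA in 7 (11.5%) against 15.7%. CCGGAAG stood in 19 of the 50 genes that rose and in 6 of the 11 not called. The 100 bases before the start are shown for Rps6, which rose, and Rps21, which was not called, with CCGGAAG in capitals. They lie at chr4:86857368-86857467 on the minus strand and chr2:180257279-180257378 on the plus strand.
Rps6: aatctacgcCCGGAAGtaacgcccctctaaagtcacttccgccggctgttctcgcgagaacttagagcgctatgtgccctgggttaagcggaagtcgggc
Rps21: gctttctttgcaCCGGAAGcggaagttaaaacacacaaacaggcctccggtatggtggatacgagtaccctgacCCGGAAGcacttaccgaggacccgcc

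Both sexes were examined with 2 mice per treatment and sex. None of the 85 genes was called for sex by limma (0; 2 at an unadjusted p under 0.05), where 0.0596% of all tested genes were. An unequal IL-33 effect in males and females was called for 0 of the 85 genes (lowest adjusted p = 0.228), against 0.00662% of all tested genes. Unadjusted, 29 of the 85 genes (34.1%) had a p under 0.05, all with the larger effect in females, against 8.31% of all tested genes. These genes share the same mice and are not separate evidence. The highest IL-33 mouse in 64 of the 85 genes (mouse 2) and the lowest vehicle mouse in 62 (mouse 6) are both female. The median log2 fold change was 0.61 in females and 0.31 in males. In females alone 53 genes were higher and 0 lower, against 21.3% and 20.6% of all tested genes. In males alone 39 were higher and 3 lower, Rps21 and Rps29 among them, against 24.9% and 25% of all tested genes. Without vehicle mouse 5 the difference between the sexes was called for 21 of the 85 genes (2.46% of all tested genes), and with that mouse left out vehicle mouse 6 is the only female control.

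Ribosomal proteins that carry other names, and the genes that work with the ribosome, were counted in lists from textbook knowledge; several lists share members. Rack1, a scaffold on the head of the 40S subunit, rose to 1725 ± 238 with IL-33 against 936.0 ± 105.9 with vehicle (SD, n = 4 each, log2 fold change 0.88, adjusted p = 3.20e-06). Fau, the precursor of a 40S protein, averaged 644.8 with IL-33 and 587.0 with vehicle (log2 fold change 0.16, adjusted p = 0.489).

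Other genes known for TOP messengers rose in 18 of 19 cases (94.7%), with 0 lower and a median log2 fold change of 0.92. For this list and the initiation and elongation lists below, the shares of all tested genes were 29.2% higher and 28.5% lower. Eef1g, a subunit of the elongation factor 1 complex, had 2480, 2354, 2093 and 2266 normalized counts in IL-33 mice against 678.9, 741.6, 630.6 and 669.6 in vehicle mice (log2 fold change 1.75, adjusted p = 3.26e-12). Eif3a and Eif3e, subunits of initiation factor 3, rose by 1.22 and 1.17. Of 37 initiation factors 33 rose and 1 fell (median 0.79), and Eif2s1, which carries the phosphorylation that halts initiation under stress, rose by 1.47 (adjusted p = 7.38e-08) and Eif3l by 1.20. Of 11 elongation and termination factors 9 rose and 2 fell (median 0.96). Eef2k, the kinase that inhibits elongation factor 2, was the largest fall of that list, with 223.1, 201.4, 260.8 and 231.5 in IL-33 mice against 1608, 992.4, 1483 and 1591 in vehicle mice (log2 fold change -2.60, adjusted p = 1.64e-11). Eef1e1, an auxiliary protein of the synthetase complex, rose by 1.85.

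**Figure D5:**
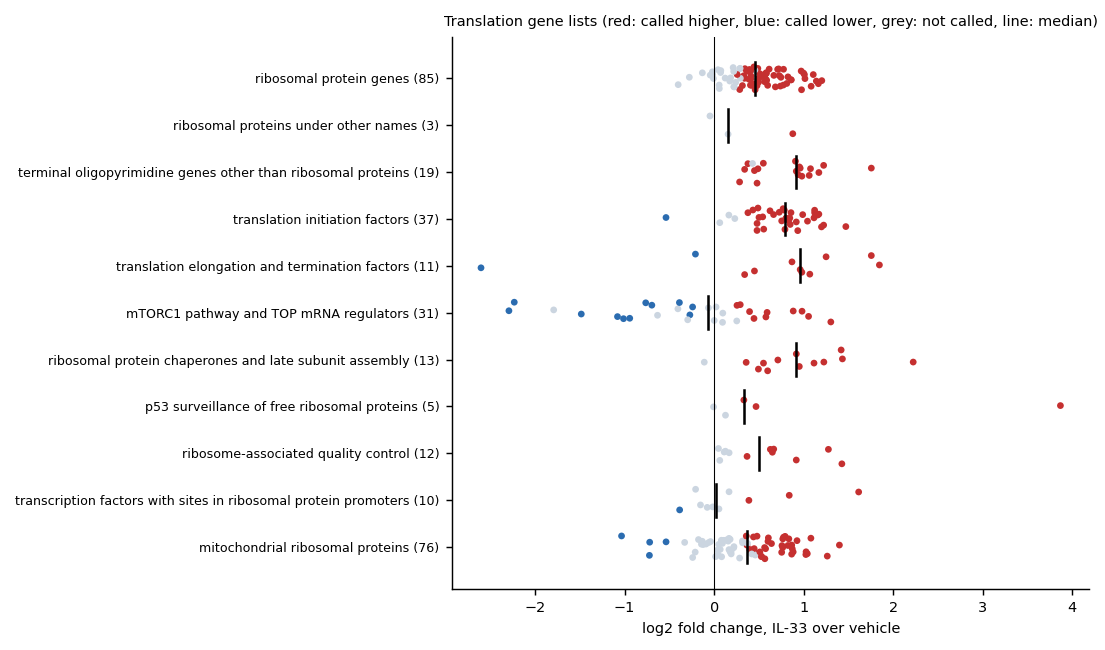
Log2 fold change of IL-33 over vehicle (x axis) for every tested gene of each list (rows, number of genes in brackets), with called genes in red (higher) or blue (lower), others in grey, and the list's median as a black line. The 85 ribosomal protein genes are in the top row with a median of 0.45; the medians of TOP genes, initiation factors, elongation factors and chaperones lie between 0.79 and 0.96.

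Of 31 tested genes of the mTORC1 pathway and of TOP messenger regulation, 10 rose (32.3%) and 11 fell (35.5%), near the 29.2% and 28.5% of all tested genes, with a median of -0.06. Sesn1 and Sesn3, sestrins that hold mTORC1 back when amino acids are short, were at log2 fold changes of -2.29 and -1.48 (adjusted p = 2.30e-11 and 8.50e-07). Deptor, an inhibitor bound to the kinase, had 36.5, 56.6, 55.5 and 27.8 in IL-33 mice against 243.1, 157.0, 205.9 and 214.2 in vehicle mice (log2 fold change -2.23, adjusted p = 2.36e-07). Sesn2, another sestrin, rose by 1.30 and Eif4ebp1, a repressor of translation that mTORC1 inactivates, by 1.05, both chosen after their values were seen. Of the 10 tested transcription factors known to bind ribosomal protein promoters, 3 rose (30%, near the 29.2% of all tested genes) and 1 fell (10%). Myc had 2061, 1911, 2018 and 1959 in IL-33 mice against 711.7, 989.1, 630.6 and 398.3 in vehicle mice (log2 fold change 1.61, adjusted p = 0.000264), while Tbpl1, a relative of the TATA-binding protein, rose by 0.84 and Nrf1 by 0.39.

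Chaperones of ribosomal proteins and late assembly factors rose in 12 of 13 tested genes (92.3%, median 0.92). For this list and the quality control and mitochondrial lists below, the shares of all tested genes were 29.2% higher and 28.5% lower. Grwd1, whose yeast counterpart guards newly made Rpl3, averaged 166.3 ± 36.4 with IL-33 and 35.2 ± 10.1 with vehicle (log2 fold change 2.22, adjusted p = 1.93e-07). Heatr3, known in human cells to carry RPL5 into the nucleus, rose by 1.43 and Nmd3, the export adaptor of the 60S subunit, by 1.42. Ribosome-associated quality control had 7 higher of 12 tested (median 0.50), led by Hbs1l, a rescue factor, at 1.43, G3bp1 at 1.28 and Zfp598, which senses collided ribosomes, at 0.92. In the p53 list 3 of 5 rose, in a list too short to set against the 29.2% of all tested genes: Cdkn1a, a cell cycle inhibitor, by 3.87, Trp53 by 0.47 and Ccng1 by 0.33, the last a call lost without IL-33 mouse 1, 2 or 4 or vehicle mouse 5 or 7 (0.25 to 0.31). Mitochondrial ribosomal proteins, which build the separate ribosome of that organelle, rose in 36 (47.4%) and fell in 4 (5.26%) of 76 (median 0.36). Mrps18b was at 1.398, Mrpl45 at 1.26 and Mrps22 at 1.08. Reads of all mitochondrial ribosomal proteins took 0.154% ± 0.004 of the library with IL-33 and 0.119% ± 0.004 with vehicle (SD, n = 4 each).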

How the data were processed

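Bulk RNA-seq of 8 libraries was analysed. The expression values deposited by the authors are a signal, gene read counts divided by 1 size factor per library, per the file headers. The submitters' processing notes name STAR 2.6.0, HTSeq 0.9.0, DESeq2 1.24.0 and GRCm38, with no role or order; the strand setting is not given in the sources used here. Whole reads were recovered from the steps between values (tolerance 0.001 reads). The authors' deposited table of their own comparison holds log2 fold changes, a score (fold change over its error) and p-values. Genes were named by Ensembl identifier in GENCODE M21.

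Genes with at least 10 normalized counts in at least 4 libraries (15110) were tested with limma 3.58.1 (R 4.3.3, two-sided, robust eBayes with a mean trend) on log2(value + 1), a scale that understates changes of low genes. edgeR 4.0.16 (quasi-likelihood) and DESeq2 1.42.0 on recovered reads, other scalings, pseudocounts of 0.5 and 5, other filters, single sexes and leaving out each mouse were alternatives. The limma script was tested on simulated data. The members and lists were chosen with earlier results of these data known. Genes named are a panel with known roles, the 6 largest rises, the 3 smallest changes, the 3 highest and 3 lowest means, up to 3 called genes per list and the 3 most read pseudogenes; others are marked, and some named items are not reported here. Coding lengths are of the shortest transcript of the best APPRIS rank.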

Additional observations from a re-analysis of the deposited data

Results flagged for a closer look

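Among 34 named genes in 2 groups of 4 mice (68 groups examined), 3 held a mouse far from the others, and chance gives about 1 in 20 groups. IL-33 mouse 3 had 201.4 normalized counts of Rpl13a, against 250.4 to 256.0 in the other IL-33 mice. Vehicle mouse 6 had 4.36 of Rpl36al, against 9.01 to 9.25 in the other vehicle mice, and 181.0 of Rps21, against 309.3 to 320.5. For Rpl21 the IL-33 effect was 0.16 in females and -0.20 in males, a difference of males minus females of -0.36 on the log2 scale; the interaction term was not called.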

How the results depend on the processing

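No paired analysis was possible because the groups share no replicate numbers (mice 1 to 4 against mice 5 to 8). The count of ribosomal protein genes called higher was 49 to 62 under the scalings, pseudocounts, filters and tools tried, 53 in females alone and 39 in males alone, and 51 to 64 with each mouse left out. The count called lower was 1 with upper quartile scaling, 1 with quantile normalization, 3 in males alone and 0 to 3 with each mouse left out. Rps29 is in each of these sets that is not empty. Of all tested genes, 31.2% were called lower with upper quartile scaling and 28.9% with quantile normalization. The share was 25% in males alone and 26.2% to 28.3% with each mouse left out. The median log2 fold change was 0.61 in females and 0.31 in males. The count with a different effect between the sexes was 0 to 21 with each mouse left out, and the count of genes with all IL-33 mice below all vehicle mice 0 to 2. Complete separation of the groups is easier to reach with a mouse left out, and its share of all tested genes was not counted there. Some genes changed sign. In males alone Rps3 was at -0.042, Rps4l at -0.27, Rps3a3 at -0.18, Fau at -0.26 and Rpl10a-ps1 at -0.00666. In females alone Rpl39 was at 0.27, Rpl21 at 0.16, Rps21 at 0.32 and Rpl6l at 0.24. Rps3a3 was at -0.00938 with upper quartile scaling. With each mouse left out the ranges were -0.29 to 0.036 for Rps27, -0.21 to 0.10 for Rpl39, -0.10 to 0.44 for Rps4l, -0.10 to 0.052 for Rpl21, -0.25 to 0.076 for Rps21, -0.12 to 0.22 for Rps3a3, -0.70 to 0.044 for Rpl6l and -0.040 to 0.29 for Fau. The cause was not tested. Scaling moved the median of all genes to between -0.05 and 0.02. Of 778 recomputed values of 34 named ribosomal protein genes, 700 kept their direction and call, 45 lost the call, 7 gained one and 26 changed sign. Genes under about 20 normalized counts, such as Rpl24 and Rpl36al, are limited by depth.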
